A study of Homo sapiens with 8 samples.

Results

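CAKI1, 1 of the 4 human renal carcinoma lines of the series, contributed 2 of its 8 arrays: 1 of cells given 75 nM A939572 for 24 h and 1 of cells given the solvent DMSO. What this line did with the drug is described here as the log2 difference between its treated and control array, set against the same difference in ACHN, CAKI2 and A498, each with 1 array per treatment at the same dose and time. All are established human kidney cancer lines, called clear cell lines by the submitters, grown in serum-containing medium with antibiotics. Each stands for 1 tumour, and the labels do not say whether the arrays came from separate cultures. A level is log2(signal + 16) after quantile normalization, and a difference is A939572 minus DMSO on that scale. Of 19775 genes with a probe set, 12093 reached the median brightness of all probe sets, a level of 6.41, and were compared.

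A939572 blocks stearoyl-CoA desaturase, the endoplasmic reticulum enzyme that puts the first double bond into saturated fatty acids. When saturated lipids build up in the membrane of that organelle, cells switch on the unfolded protein response. One arm acts through the kinase PERK and the factor ATF4 on amino acid transport and redox genes, and others through ATF6 and XBP1 on chaperones, protein export and degradation. The question put to the arrays was how the response of CAKI1 differed from that of the other lines.

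With 1 array per side there is no test within CAKI1. The difference between CAKI1 and the other lines was tested as an interaction with limma, whose error comes from the spread of ACHN, CAKI2 and A498, with the single CAKI1 difference assumed to vary like theirs. No gene passed at a Benjamini-Hochberg adjusted p of 0.05 in either direction (0.0% of 12093 higher and 0.0% lower). The lowest adjusted p was 0.647, and 584 genes (4.83%) had an unadjusted p under 0.05, 249 with the larger value in CAKI1 and 335 with the smaller. The median SE of CAKI1 minus the others was 0.38. The values for single genes and lists therefore describe these arrays, and are given with the range over the other 3 lines.

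On the CAKI1 arrays the epithelial and renal genes of the label were bright: PAX8, the renal lineage factor, had levels of 11.97 with DMSO and 12.13 with the drug, and KRT18 had 13.44 and 12.73. PAX2 (5.88 and 5.93) and CDH16 (5.64 and 5.40) lay below 6.41, so the label holds for PAX8 and the keratins and not for those markers. Summed signals of 11 renal markers were 78379 and 73760, against 979 and 493 units for 9 fibroblast, 195 and 212 for 5 leukocyte and 274 and 252 for 6 endothelial markers. The renal sum rests mainly on VIM (15.12 and 15.25) and MET (14.35 and 14.36), so it does not measure renal cells alone. Of the 9 fibroblast markers 5 were over the limit with DMSO and 3 with the drug. COL1A1 and PTPRC, which define fibroblasts and leukocytes, had 8.93 and 7.64, and 5.76 and 5.14. The log2 ratio of 3' to 5' ACTB probe sets was higher in treated cells of every line, by 0.51 in CAKI1 and by 0.42 to 0.98 in the others, and the probe set for the 5' part of 28S RNA by 2.79 and by 1.37 to 2.66. Spiked hybridization controls differed by 0.25 in CAKI1 and by -0.05 to 0.15 in the others. The part of these values in the results was not tested.

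CAKI1 had the smallest spread of differences of the 4 lines. The SD of the differences over genes was 0.64 in CAKI1, 0.75 in ACHN, 0.69 in CAKI2 and 0.67 in A498. At least 2-fold higher with the drug were 570 genes in CAKI1 (4.71%), against 918, 773 and 770 in the other lines in that order, and at least 2-fold lower were 662 (5.47%), against 977, 754 and 700. The least squares slope of the CAKI1 difference on the mean of the other 3 was 0.69 over genes, with r = 0.64. Taking each other line in turn against its own 3 gave 0.93 for ACHN, 0.81 for CAKI2 and 0.76 for A498. A slope under 1 is thus found for every line, and that of CAKI1 is the lowest of the 4. Genes are not independent replicates, and these values carry no test.

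Genes that responded in all 3 other lines did so by less in CAKI1. Of 206 genes at least 2-fold higher in ACHN, CAKI2 and A498 alike, 117 (56.8%) were so in CAKI1 too, with a median of 1.08 against 1.62. CAKI1 had the smallest difference of the 4 lines in 133 of them (64.6%). Of 178 genes at least 2-fold lower in the other 3, CAKI1 followed in 93 (52.2%), with a median of -1.02 against -1.48, and had the weakest difference in 131 (73.6%). Put in the same place, ACHN followed the other 3 in 81.2% and 75.0%, CAKI2 in 70.5% and 65.5%, and A498 in 74.1% and 63.7%.

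**Figure D1:**
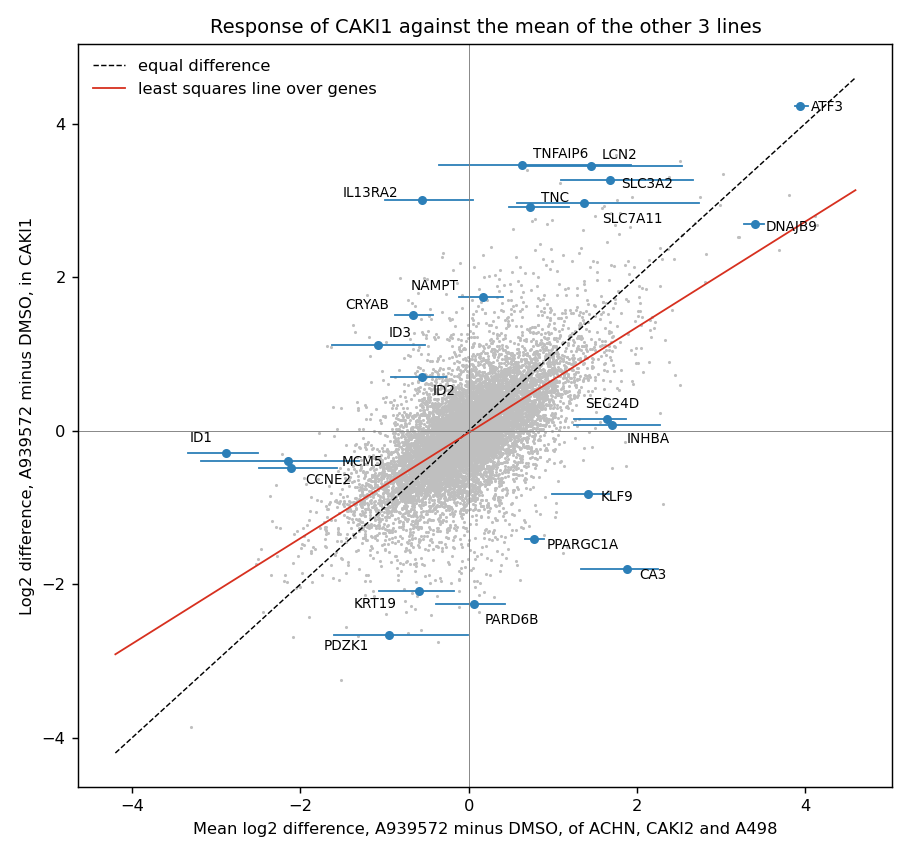
Each grey point is 1 of 12093 genes, with the mean log2 difference of ACHN, CAKI2 and A498 across and that of CAKI1 up. The red least squares line has a slope of 0.69 and lies flatter than the dashed line of equal difference, and the blue points are named genes with bars for the range over the other 3 lines. ID1, SEC24D and INHBA lie near 0 in CAKI1, while CRYAB, ID3 and IL13RA2 lie above 0 and KLF9 and CA3 below.

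Of all genes, CAKI1 lay above the highest of the other 3 lines in 2879 (23.8%) and below the lowest in 3190 (26.4%). These shares are the background for the list counts given below. With arrays centred on their medians in place of quantile normalization these counts were 2206 and 3928. CAKI1 lay outside the range by log2 1 or more in 105 genes above (0.868%) and 138 below (1.14%). The same count was 151 and 121 for ACHN, 142 and 79 for CAKI2, and 128 and 97 for A498 against their own 3, so CAKI1 was the line with fewest genes far above and most far below. These far genes were dim: the 105 had a median level of 7.09 and the 138 one of 6.96, against 9.44 for all genes tested. In 66 of the 105 the DMSO level of CAKI1 was under 6.41, and in 78 of the 138 its A939572 level was. A second bright probe set existed for 29 of the 105 and had the same sign in 25, lay outside the range on the same side in 20 and did so by log2 1 in 10. For the 138 the counts were 38, 30, 24 and 5, with a median of CAKI1 minus the others of -0.61 from the second probe set and -1.46 from the first. Of 83 genes described here with their values, 42 had a further bright probe set and 40 of these lay outside the range. All further probe sets lay on the same side for 23 of the 40 and at least 1 did not for 17, which are ATF3, BCL2L11, CEBPG, CXCL8, EGR1, EREG, HMGCS1, HRK, ID2, KLF9, MCM5, PMAIP1, PSPH, SPRY1, SSR1, TNC and XBP1. Levels and differences are those of the brightest probe set unless another is named.

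The ID genes are inhibitors of basic helix-loop-helix factors that BMP signalling through SMAD proteins switches on, and CAKI1 lay above the range by log2 1 or more in ID1 and ID3. ID1 had levels of 10.25, 13.15 and 12.33 with DMSO and 6.92, 10.65 and 9.51 with A939572 in ACHN, CAKI2 and A498, and 9.79 and 9.51 in CAKI1. Treated and control cells of CAKI1 thus differed by -0.29, where the other lines differed by -3.34, -2.50 and -2.81 (CAKI1 minus the others 2.60, SE 0.38, limma adjusted p = 0.647). CAKI1 began with the lowest control level and ended within the range of the other treated arrays. Without CAKI2, the line nearest to CAKI1 here, the same comparison gave 2.79, with fewer lines to set the spread.

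ID3 went the opposite way in CAKI1. Its level was 8.54 with DMSO and 9.67 with the drug, a difference of 1.12, while ACHN went from 7.31 to 6.79, CAKI2 from 9.79 to 8.69 and A498 from 9.86 to 8.23. ID2 had 9.95 and 10.65 in CAKI1, a difference of 0.70, against -0.92, -0.46 and -0.27. A second, dimmer ID2 probe set had -0.67 in CAKI1 against -0.78, -0.97 and -0.43, within the range, so the opposite sign of ID2 is that of 1 probe set. ID1 and ID3 had no further bright probe set. Their single CAKI1 differences lay above the range of the other lines, as did those of 23.8% of all genes, and by log2 1 or more, as in 0.868%.

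Other genes of BMP signalling did not share one direction against the other lines. SMAD6, the inhibitory SMAD that is itself a BMP target, had -0.91 in CAKI1 and -2.26, -1.51 and -1.63 in the others. BMP2, a ligand, had -0.74 against 1.27, 0.65 and 0.37, with its CAKI1 level at 6.52 and 5.78, close to the limit of brightness. NOG, a secreted BMP antagonist, had -1.35 against -0.32, 0.95 and 2.06, from 7.41 to 6.06. Of the 14 genes of the list of ID genes and BMP-SMAD feedback, CAKI1 lay above the range in 4 (28.6%) and below it in 4 (28.6%). Over all genes the shares were 23.8% and 26.4%. Among 14 TGF-beta targets it was above in 0 (0.0%) and below in 5 (35.7%). INHBA, the activin beta A subunit, had 13.38 and 13.46 in CAKI1, a difference of 0.08, against 1.25, 1.58 and 2.28.

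**Figure D2:**
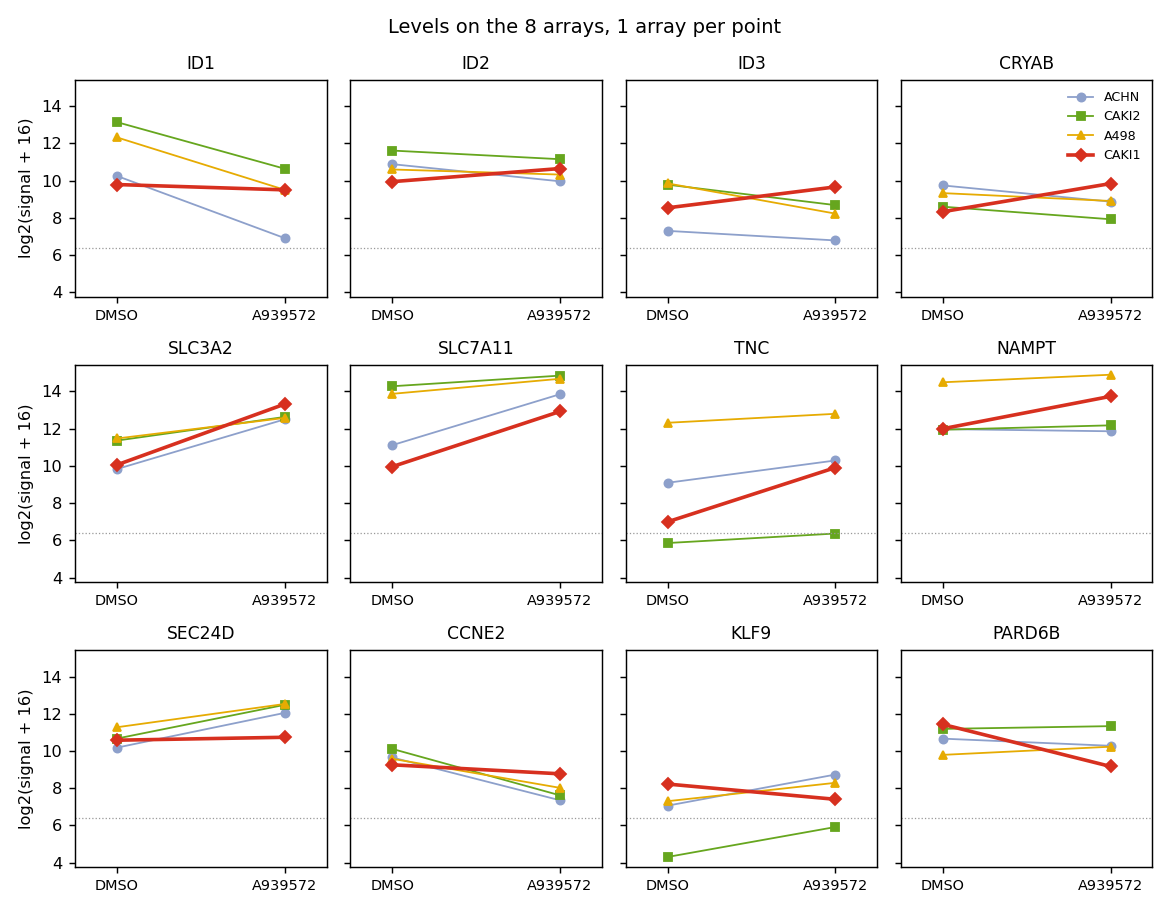
Levels as log2(signal + 16) of 12 genes on the 8 arrays, with DMSO and A939572 joined within each line and a dotted line at 6.41, the brightness limit. The thick red line of CAKI1 is nearly flat for ID1 and SEC24D, runs up against the other 3 lines for ID3, CRYAB and the brightest probe set of ID2, and runs down against them for the brightest probe set of KLF9.

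The ATF6 and XBP1 targets, chaperones and export and degradation genes of the endoplasmic reticulum, were higher with the drug in CAKI1 by less than in the other lines. Of 33 tested genes CAKI1 lay below the range of the others in 22 and above it in 1, with a list median of 0.74 against 0.93 in ACHN, 1.49 in CAKI2 and 1.06 in A498. The median of CAKI1 minus the others was -0.47, against -0.02 over all genes. Below the range were 26.4% of all genes. In 8 of the 33 the CAKI1 difference was 2-fold or more, and in 0 was it 2-fold or more the other way.

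SEC24D, a coat protein of the vesicles that leave the endoplasmic reticulum, had the largest gap to the range in the list. Its levels were 10.58 and 10.74 in CAKI1, while ACHN went from 10.18 to 12.05, CAKI2 from 10.67 to 12.48 and A498 from 11.28 to 12.53. The CAKI1 difference was 0.16 against 1.87, 1.81 and 1.25, and its 2 further bright probe sets had 0.89 and 0.72 in CAKI1, each below the mean of the others by 1.10 and 0.97. SSR1, a subunit of the translocon-associated complex, had 0.02 against 0.58, 1.11 and 0.88 by its brightest probe set, at a level near 14, while 5 further ones had 0.45 to 0.91 in CAKI1, at most 0.22 below the range. EDEM2, which marks misfolded glycoproteins for degradation, had 0.39 against 0.88, 1.76 and 0.95. CALR, the lectin chaperone calreticulin, had -0.25 against 0.13, 0.67 and 0.72.

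By their brightest probe sets, the best known markers of the response were nonetheless higher with the drug in CAKI1, though not above the range of the other lines. DNAJB9, a co-chaperone of BiP, went from 11.22 to 13.91, a difference of 2.70 against 3.51, 3.27 and 3.42. XBP1 had 0.63 against 1.48, 1.52 and 0.75, and a dim second probe set -0.14 against 0.38, 2.94 and -0.38, within the range. HSPA5, the gene of BiP itself, went from 14.72 to 15.61, a difference of 0.90 within the range of 1.11, 1.49 and 0.86, on arrays where it is among the brightest signals. Its second, dimmer probe set had 2.65 against 2.48, 2.90 and 2.35, also within the range. When the differences of the other lines were multiplied by the overall CAKI1 slope of 0.69, a comparison added after the values were seen, CAKI1 lay below the range in 7 of the 33 genes and above it in 6, with a median of -0.03. Over all genes that comparison put 31.5% below and 27.5% above.

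The promoters of a few of these genes are shown because ATF6 acts through a composite site, CCAAT and CCACG spaced by 9 bases. Windows run from 250 bases before to 50 after the RefSeq start on GRCh38.p14, and both strands were searched. The site was in 0.0769% of 35116 windows and in the windows of 14 of 9884 tested genes (0.142%). It was in those of 7 of 29 ATF6 and XBP1 targets that had a window, 2 of them (CALR and XBP1) among the 20 with CAKI1 below the range. The remaining matches, that of HSPA5 included, were in targets with CAKI1 not below the range. The site was thus less frequent among the targets below the range than in the whole list. The match is in capitals in CALR at chr19:12938359-12938658 (plus strand), XBP1 at chr22:28800520-28800819 (minus strand) and HSPA5 at chr9:125241294-125241593 (minus strand), the last of which lay within the range.
CALR: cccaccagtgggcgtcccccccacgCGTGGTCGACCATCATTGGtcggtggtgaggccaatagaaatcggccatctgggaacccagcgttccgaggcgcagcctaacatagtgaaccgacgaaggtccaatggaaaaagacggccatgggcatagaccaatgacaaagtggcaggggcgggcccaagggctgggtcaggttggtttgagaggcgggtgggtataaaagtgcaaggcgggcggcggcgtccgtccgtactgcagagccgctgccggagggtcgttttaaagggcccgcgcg
XBP1: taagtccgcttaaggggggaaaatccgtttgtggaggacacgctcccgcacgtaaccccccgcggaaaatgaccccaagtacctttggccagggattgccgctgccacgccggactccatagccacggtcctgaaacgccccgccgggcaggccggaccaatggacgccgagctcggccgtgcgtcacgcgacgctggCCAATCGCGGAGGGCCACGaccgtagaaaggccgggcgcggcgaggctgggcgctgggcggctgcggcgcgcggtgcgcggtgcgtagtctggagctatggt
HSPA5: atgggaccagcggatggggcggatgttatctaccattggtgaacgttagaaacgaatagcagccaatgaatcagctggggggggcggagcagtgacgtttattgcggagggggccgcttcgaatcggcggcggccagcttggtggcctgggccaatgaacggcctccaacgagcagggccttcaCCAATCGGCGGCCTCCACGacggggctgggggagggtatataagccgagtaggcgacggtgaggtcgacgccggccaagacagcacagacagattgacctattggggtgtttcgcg

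The PERK, ATF4 and CHOP branch lay on both sides of the other lines. Of 35 tested genes CAKI1 lay above the range in 7 and below it in 9 (25.7%), against 23.8% and 26.4% of all genes. Neither share exceeded that of all genes. The median was 0.86 against 0.75, 1.10 and 0.58. Of the 35, 15 were 2-fold or more higher in CAKI1, against 4.71% of all genes. With the other lines multiplied by the slope, 17 (48.6%) were above and 7 below, against 27.5% and 31.5% of all genes.

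Both chains of the cystine transporter lay above the range in CAKI1. SLC3A2, the heavy chain, had levels of 9.83, 11.36 and 11.47 with DMSO and 12.50, 12.63 and 12.57 with the drug in ACHN, CAKI2 and A498, and 10.05 and 13.32 in CAKI1. The CAKI1 difference of 3.26, or 9.59-fold, exceeded 2.67, 1.27 and 1.10, and its treated level was the highest of the 8. SLC7A11, the light chain, had 9.96 and 12.92 in CAKI1, a difference of 2.96 against 2.74, 0.57 and 0.81. Its treated level in CAKI1 was nevertheless the lowest of the 4 treated arrays, since CAKI2 and A498 held 14.28 and 13.87 before treatment. CAKI1 minus the others was 1.59 for SLC7A11 with all lines (limma adjusted p = 0.991), and 2.27 without ACHN, the line nearest to CAKI1.

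CHAC1, a glutathione-degrading enzyme and ATF4 target, had 4.98 and 8.21 in CAKI1, a difference of 3.23, near that of CAKI2 (3.0) and far from ACHN (0.09) and A498 (0.17). ATF3, a stress-induced factor, had the largest CAKI1 difference of any gene tested, 4.24 against 3.91, 4.04 and 3.88. Of its further probe sets 1 put CAKI1 within the range (2.93 against 3.02, 3.54 and 2.51) and 1 above it. CEBPB had 0.64 against 2.61, 2.0 and 0.83, with a control level in CAKI1 (13.87) already higher than in the other lines (11.22, 11.93 and 13.48). PSPH, the last enzyme of serine synthesis, had -1.03 against 0.17, 0.33 and -0.33, from 11.49 to 10.45, with 1 of its 2 further probe sets within the range.

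ATF4 is known to bind with C/EBP partners at TGATGNAA, and the windows of the branch genes are shown for that reason. It was in 3.62% of all windows and in those of 295 of 9884 tested genes (2.98%). It was in the windows of 8 of 28 genes of the branch, of 5 of the 6 with CAKI1 above the range (83.3%), and of 1 of the 7 with CAKI1 below it (14.3%). A gene counted if any of its windows held a match, the list was drawn up as ATF4 targets, and a match is not a bound site. The 5 are CHAC1 at chr15:40953221-40953520, SLC3A2 at chr11:62881449-62881748, ATF3 at chr1:212565157-212565456 and CEBPG at chr19:33373863-33374162 on the plus strand, and SLC7A1 at chr13:29595639-29595938 on the minus strand. Capitals mark the match on either strand.
CHAC1: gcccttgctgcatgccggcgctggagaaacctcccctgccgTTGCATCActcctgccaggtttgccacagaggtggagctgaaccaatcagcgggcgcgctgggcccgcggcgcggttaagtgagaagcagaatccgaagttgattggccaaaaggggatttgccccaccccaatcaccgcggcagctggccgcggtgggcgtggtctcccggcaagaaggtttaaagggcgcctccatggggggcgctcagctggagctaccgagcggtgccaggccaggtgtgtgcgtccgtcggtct
SLC3A2: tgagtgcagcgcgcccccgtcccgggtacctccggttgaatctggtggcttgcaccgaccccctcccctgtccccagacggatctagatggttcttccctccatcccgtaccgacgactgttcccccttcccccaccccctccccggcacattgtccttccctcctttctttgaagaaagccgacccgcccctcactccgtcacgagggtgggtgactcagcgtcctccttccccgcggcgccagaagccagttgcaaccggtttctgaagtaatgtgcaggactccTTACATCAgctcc
ATF3: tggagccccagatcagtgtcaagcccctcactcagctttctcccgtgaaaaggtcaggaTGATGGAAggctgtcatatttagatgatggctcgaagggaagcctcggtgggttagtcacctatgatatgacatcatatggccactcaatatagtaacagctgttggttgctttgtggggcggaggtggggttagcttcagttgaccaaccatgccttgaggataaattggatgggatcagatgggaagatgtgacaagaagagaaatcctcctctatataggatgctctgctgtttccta
CEBPG: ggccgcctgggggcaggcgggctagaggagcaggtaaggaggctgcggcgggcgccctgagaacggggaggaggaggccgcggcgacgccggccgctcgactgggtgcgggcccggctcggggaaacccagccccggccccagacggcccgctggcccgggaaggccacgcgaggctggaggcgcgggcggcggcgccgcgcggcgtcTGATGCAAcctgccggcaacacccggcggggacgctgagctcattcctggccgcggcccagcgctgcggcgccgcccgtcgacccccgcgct
SLC7A1: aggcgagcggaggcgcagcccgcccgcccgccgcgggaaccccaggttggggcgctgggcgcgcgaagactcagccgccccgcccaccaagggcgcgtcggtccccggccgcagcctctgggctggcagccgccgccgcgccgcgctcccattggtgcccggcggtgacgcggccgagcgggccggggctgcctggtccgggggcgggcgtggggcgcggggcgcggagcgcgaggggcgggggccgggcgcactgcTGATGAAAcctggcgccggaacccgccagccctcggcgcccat
CEBPG, a partner of ATF4, had 1.70 in CAKI1 against 1.70, 1.69 and 0.85, and SLC7A1, a cationic amino acid transporter, 0.95 against 0.55, 0.83 and 0.80. Their margins over the nearest line were small beside that of SLC3A2, and the second probe set of CEBPG had 1.08 against 1.12, 0.65 and 0.85, within the range.

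DNA replication genes were lower with the drug in CAKI1 by less than in the other lines. Of 41 tested G1/S and DNA replication genes CAKI1 lay above the range in 27 and below it in 1, where 23.8% of all genes were above. The list median was -0.84 in CAKI1, -1.51 in ACHN, -1.46 in CAKI2 and -1.09 in A498, and 14 of the 41 were 2-fold or more lower in CAKI1. The median of CAKI1 minus the others was 0.46. With the other lines multiplied by the slope, 12 (29.3%) were above and 9 (22.0%) below, against 27.5% and 31.5% of all genes. In bulk RNA, fewer cells in S phase and less of these RNAs per cell cannot be told apart.

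CCNE2, a cyclin of entry into S phase, had levels of 9.65, 10.11 and 9.58 with DMSO and 7.35, 7.62 and 8.02 with the drug in the other lines, and 9.26 and 8.77 in CAKI1. Its CAKI1 difference was -0.48, against -2.30, -2.49 and -1.56, and the CAKI1 treated level was above all 3 other treated arrays while its control level was the lowest. RRM2, the small subunit of ribonucleotide reductase, had 11.54 and 10.83 in CAKI1, a difference of -0.71 against -2.64, -2.56 and -1.66. Here CAKI1 began more than log2 1 below the other control arrays (13.19, 13.06 and 13.39). MCM5, a subunit of the replicative helicase, had -0.39 against -1.31, -3.18 and -1.96, but its second probe set had -1.10 against -2.13, -1.75 and -0.73, within the range. CDCA7 had -1.18 against -2.59, -2.49 and -1.94, and POLE, the leading-strand polymerase, -0.18 against -2.21, -1.21 and -0.63.

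Genes of G2/M and mitosis stood closer to the other lines. Of 42, CAKI1 lay above the range in 14 (33.3%) and below it in 3 (7.14%), against 23.8% and 26.4% of all genes. With median centring 6 were above and 4 below. The median was -0.87, between those of CAKI2 (-1.29), ACHN (-1.17) and A498 (-0.62). With the other lines multiplied by the slope, 2 (4.76%) were above and 15 (35.7%) below, against 27.5% and 31.5% of all genes. UBE2C, a ubiquitin-conjugating enzyme of mitotic exit, was among the 3 below the range as measured, with -1.52 against -1.40, -0.62 and -0.20. A498 had the smallest median difference for this list.

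**Figure D3:**
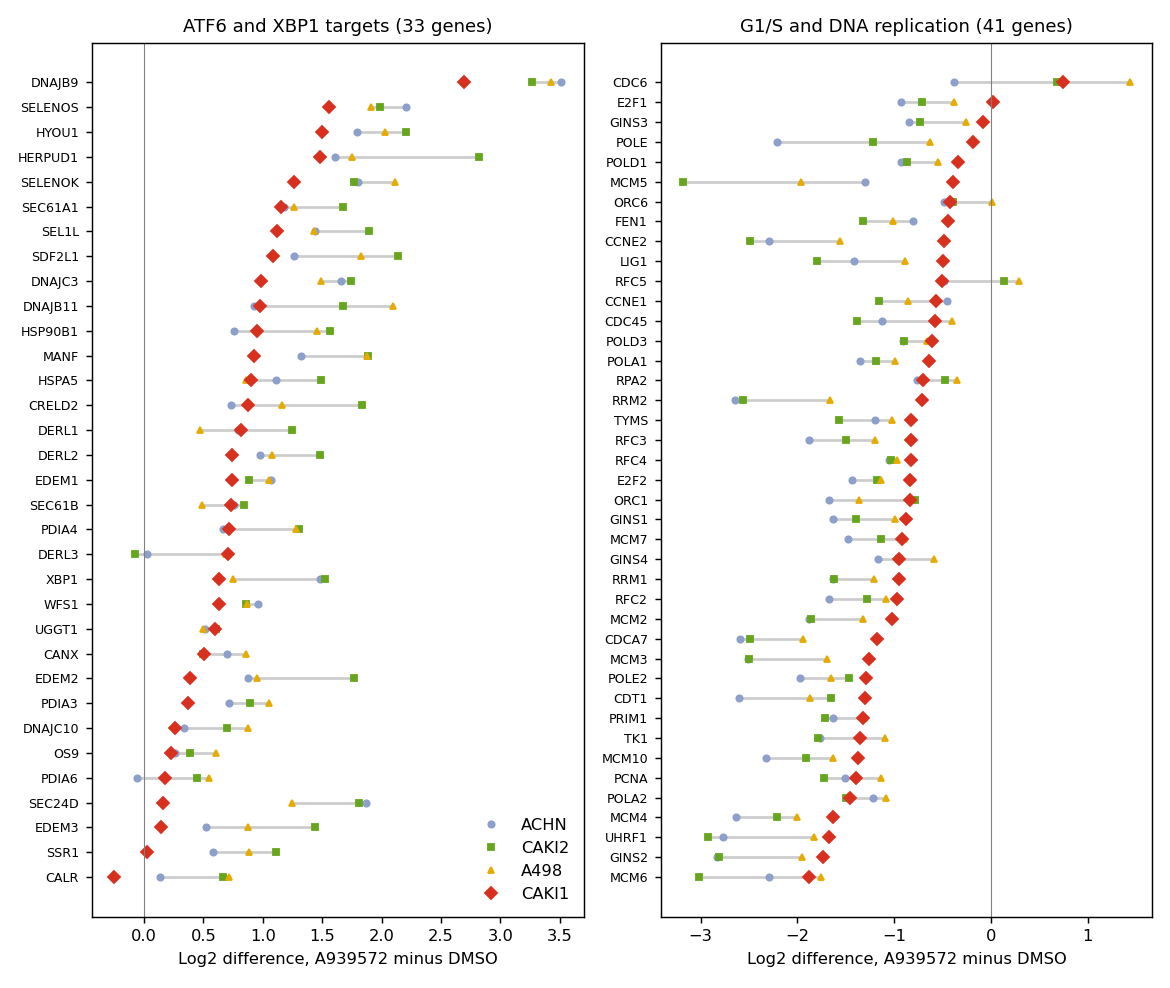
Log2 differences in each line for the 33 ATF6 and XBP1 targets and the 41 G1/S and DNA replication genes, ordered by CAKI1, with grey bars for the range over the other 3 lines. The red diamonds of CAKI1 lie to the left of the bars in 22 of the 33 targets and to the right in 27 of the 41 replication genes, on the side of 0 in both.

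E2F factors drive replication genes through sites such as TTTCGCGC and TTTGGCGC. On either strand, these letters were in 1.15% of all windows, in those of 237 of 9884 tested genes (2.4%), and in those of 13 of 35 genes of the G1/S list (37.1%). Among members with CAKI1 above the range they were in 9 of 23 (39.1%), so the share there was close to that of the list. MCM2 at chr3:127598161-127598460 (plus strand), MCM3 at chr6:52284693-52284992 (minus strand) and POLE at chr12:132687293-132687592 (minus strand) are shown as members above the range, with the match in capitals.
MCM2: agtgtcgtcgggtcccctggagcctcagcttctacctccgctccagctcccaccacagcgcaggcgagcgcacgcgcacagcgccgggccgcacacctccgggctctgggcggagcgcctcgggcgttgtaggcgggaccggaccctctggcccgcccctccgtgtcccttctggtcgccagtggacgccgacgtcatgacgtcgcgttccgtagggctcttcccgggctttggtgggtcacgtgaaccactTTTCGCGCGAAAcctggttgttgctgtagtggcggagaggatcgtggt
MCM3: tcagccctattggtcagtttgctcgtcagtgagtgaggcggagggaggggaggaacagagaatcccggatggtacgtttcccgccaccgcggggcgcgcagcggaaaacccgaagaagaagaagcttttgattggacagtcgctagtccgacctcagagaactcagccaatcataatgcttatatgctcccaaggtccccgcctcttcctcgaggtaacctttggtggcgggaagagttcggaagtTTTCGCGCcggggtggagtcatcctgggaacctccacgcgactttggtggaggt
POLE: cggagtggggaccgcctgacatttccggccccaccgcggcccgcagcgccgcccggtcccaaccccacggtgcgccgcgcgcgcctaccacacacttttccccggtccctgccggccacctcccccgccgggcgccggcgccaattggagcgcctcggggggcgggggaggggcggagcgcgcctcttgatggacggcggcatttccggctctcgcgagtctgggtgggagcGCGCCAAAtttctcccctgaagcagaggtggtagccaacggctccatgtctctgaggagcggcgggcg
MCM2 and MCM3, helicase subunits, had -1.02 and -1.26 in CAKI1, against -1.88, -1.86 and -1.33 and against -2.51, -2.50 and -1.70.

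Growth factor feedback and early response genes were on the low side as measured, but hardly so with the slope. Of 23 immediate early and MAPK feedback genes CAKI1 lay below the range in 12 (52.2%) and above it in 4 (17.4%), against 26.4% and 23.8% of all genes. The median was 0.33 against 0.76, 0.55 and 0.85. With the other lines multiplied by the slope, 9 (39.1%) were below and 8 (34.8%) above, against 31.5% and 27.5% of all genes. The second probe sets of SPRY1 and EGR1, both dim, had 0.05 and 0.31 in CAKI1 and lay within the range, unlike the values that follow. The feedback inhibitors SPRY1 and SPRY4 had -0.75 and -1.01 in CAKI1, against 0.23, 1.20 and 0.61 and against -0.15, 0.55 and 0.85, with SPRY4 ending at 6.29, under the limit of brightness. EGR1 had -1.03 against -0.67, 0.06 and 0.96. FOS had 2.36 against 3.17, 4.36 and 3.54, from levels of 4.35 to 5.00 under DMSO in all lines, so those differences start below the limit.

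DUSP1 and DUSP10, phosphatases that switch off MAP kinases, lay above the range, while DUSP4 of the same family and list lay below it and DUSP5 and DUSP6 within it. DUSP1 went from 10.34 to 13.35 in CAKI1, a difference of 3.01, and from 12.34, 11.81 and 11.85 to 13.93, 13.63 and 13.74 in the others, a difference of 1.59, 1.83 and 1.89. CAKI1 had the lowest level of the 4 lines on both sides, by far less after treatment. DUSP10 had 1.71 against 1.30, 0.24 and -0.12. Among 10 EGFR ligands and receptors CAKI1 lay above the range in 2 and below it in 3, against 23.8% and 26.4% of all genes. Only the 3 below it are given next. EREG, a ligand, was at 13.64 and 13.68 in CAKI1, a difference of 0.04 against 1.95, 1.62 and 0.92. Its second probe set had -0.01 against 1.71, 0.59 and -0.56, within the range. EGFR had -0.22 against 0.37, 0.50 and 1.00, and ERBB3 -1.53 against -0.43, 0.06 and -0.16, from 9.72 to 8.20.

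Secreted inflammatory genes were among the largest CAKI1 differences. Of 25 NF-kB targets and cytokines, 15 were 2-fold or more higher in CAKI1, against 4.71% of all genes. The list median was 1.07 against 0.61, 1.44 and 0.91. CAKI1 lay above the range in 5 and below it in 4, and in 12 and 2 with the slope taken into account. CCL20, a chemokine, went from 8.61 to 12.20, or 12.1-fold, a difference of 3.59 against 0.70, 1.87 and 2.69. PTGS2, the inducible cyclooxygenase, had 3.30 against 1.37, 3.24 and 2.53, close to CAKI2. CXCL8, interleukin 8, had 3.08 against 3.88, 3.87 and 3.69, with a treated level of 15.38 that was the highest of the 8 arrays and near the top of the scale. Its second, dimmer probe set had 4.48 against 3.96, 4.12 and 4.36, so that CAKI1 was above the range there and below it in the brightest. IRF1, an interferon-regulated factor, had 1.35 against 0.48, 0.78 and 0.99. In its list of 33 interferon genes 3 (9.09%) were above and 1 (3.03%) below, under the shares over all genes. With median centring 1 was above and 3 below.

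Outside the lists, LCN2, an iron-binding lipocalin of injured kidney, went from 8.13 to 11.57 in CAKI1, a difference of 3.45 against 0.65, 2.53 and 1.17. TNFAIP6, a hyaluronan-binding protein of inflammation, went from 6.22 to 9.68, a difference of 3.46 against -0.35, 1.93 and 0.32, and its second probe set had 3.79. CAKI1 minus the others was 2.83 with all lines (limma adjusted p = 0.924), and 3.47 without CAKI2, the line nearest to CAKI1. NAMPT, the rate-limiting enzyme of NAD salvage, differed by -0.12, 0.24 and 0.41 in the other lines and by 1.74 in CAKI1, to a level of 13.73 from one close to those of ACHN (11.97) and CAKI2 (11.94), and its 3 further probe sets had 1.58, 1.93 and 2.17. It is 1 of 41 genes that were at least 2-fold higher in CAKI1 and within 0.5 of 0 in each other line.

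More hypoxia and glycolysis genes lay above the range than below it, where 23.8% of all genes were above. Of 29 hypoxia and HIF targets CAKI1 was above in 12 and below in 4, with a median of 0.53 against 0.41, 0.41 and 0.21, and of 17 glycolysis genes above in 9 and below in 1, with a median of -0.10 against -0.41, -0.14 and -0.39. With the other lines multiplied by the slope, hypoxia genes had 15 above and 2 below, and glycolysis genes 5 above (29.4%) and 3 below, near the 27.5% above of all genes. The genes given next with their values were all above the range. BHLHE41 was among the 4 hypoxia genes below it, in its second probe set too, and HK1 was the 1 glycolysis gene below it. ADM, adrenomedullin, went from 10.58 to 12.65, a difference of 2.08 against 0.96, 1.55 and 0.63. P4HA1, a collagen prolyl hydroxylase, had 0.67 against -0.09, 0.18 and -0.41, and the mean of its probe sets gave a CAKI1 minus others of -0.019 in place of 0.78. ENO2, an enolase, had 0.91 against -0.23, -0.30 and -0.60. EGLN3, a HIF hydroxylase, was at 4.65 and 5.28 in CAKI1, under the limit on both arrays, and at 11.34 and 10.47 in untreated CAKI2 and A498. HILPDA, a HIF target on lipid droplets, had 1.13 against 0.28, 0.11 and -0.24.

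Of 16 heat shock proteins 8 were above the range and 1 below (10 and 2 with the slope), with a median of 0.20 against -0.05, -0.23 and -0.00. CRYAB, a small heat shock protein, had control levels of 9.75, 8.61, 9.33 and 8.34 in ACHN, CAKI2, A498 and CAKI1 and treated levels of 8.88, 7.93, 8.91 and 9.85. It was the lowest of the 4 in CAKI1 before treatment and the highest after it, with a difference of 1.51 against -0.87, -0.68 and -0.42 (CAKI1 minus the others 2.17, SE 0.36, limma adjusted p = 0.647). HSPH1, a cytosolic chaperone, had 0.89 against 0.37, -0.30 and 0.27.

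Of 31 collagens, laminins and integrins CAKI1 lay below the range in 12 (38.7%) and above it in 6, where 26.4% of all genes were below, with a median of -0.59 against -0.37, -0.22 and -0.11. On the deposited scaling 10 were below and 8 above. With the other lines multiplied by the slope, 19 (61.3%) were below and 6 (19.4%) above, against 31.5% and 27.5% of all genes. COL6A3, a collagen VI chain that only CAKI1 held above a level of 10, went from 10.42 to 9.16, while the other lines had at most 7.24. ITGA3, an integrin chain for laminin, had -1.04 against -0.37, 0.02 and 0.03. TNC and ITGA1 went the other way. TNC, tenascin C, went from 6.99 to 9.90 in CAKI1, or 7.51-fold, a difference of 2.91 against 1.20, 0.51 and 0.48, but a dim second probe set had 0.78 in CAKI1, within the range of 2.43, -0.07 and 0.21. ITGA1 had 1.18 against -0.02, -0.38 and -0.28.

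Several single genes of epithelial and tubule cells lay below the range, while their lists did not share a direction. Of 13 epithelial-mesenchymal genes 8 had a CAKI1 difference over 0 and 5 under 0, with a median of 0.24 against 0.19, -0.03 and 0.23. CAKI1 was above the range in 1 (7.69%) and below it in 3 (23.1%), against 23.8% and 26.4% of all genes. KRT19, a keratin of simple epithelia, went from 11.73 to 9.64, a difference of -2.09 against -0.18, -0.53 and -1.07, and EPCAM, an epithelial adhesion protein, from 8.95 to 7.66, or -1.29 against -0.60, 0.46 and 0.78. PDZK1, a scaffold of proximal tubule transporters, went from 10.66 to 7.99, a difference of -2.67 against -1.26, -0.00 and -1.60. PARD6B, a polarity protein, was at 11.43 and 9.17 in CAKI1, while the other lines differed by -0.38, 0.15 and 0.44 (CAKI1 minus the others -2.33, SE 0.37, limma adjusted p = 0.647). It began as the highest of the 4 control arrays and ended as the lowest of the treated ones. Of the 12 renal markers CAKI1 was below the range in 5 (41.7%) and above it in 2 (16.7%), against 26.4% and 23.8% of all genes. Of its differences 7 were under 0 and 5 over 0.

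Several transcription regulators had the opposite sign in CAKI1. KLF9, a glucocorticoid-responsive factor, went from 8.22 to 7.40 in CAKI1 and up by 1.67, 1.61 and 0.99 in the other lines, to a treated level between theirs. Its second probe set had 0.79 in CAKI1, so the opposite sign is that of 1 probe set. PPARGC1A, a coactivator of mitochondrial genes, had -1.41 against 0.68, 0.89 and 0.76, while the mean of all its probe sets put CAKI1 above the others by 0.13. KLF2, a factor of vessel and immune cells, had 0.71 against -0.62, -0.56 and -0.12. Among 20 PPAR targets and genes that burn fatty acids, 7 (35.0%) were above the range and 7 (35.0%) below, against 23.8% and 26.4% of all genes. HADHA, a subunit of the mitochondrial trifunctional protein, was at 0.07 against -0.49, -1.18 and -0.79 and at -0.18 and -0.09 in its further probe sets, above the range in each.

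In the pathway of the drug's target, the medians of the cholesterol and fatty acid synthesis lists lay within the range of the other lines. SCD had levels of 14.46 and 13.92, a difference of -0.55 within the range of -0.93, -0.10 and -0.49. Of its 3 further bright probe sets 2 put CAKI1 within the range and 1 below it (-0.51 against -0.10, 0.11 and 0.06). Of 17 cholesterol synthesis genes CAKI1 was below the range in 5 and above it in 3, with a median of -0.74 against -1.05, -0.48 and -0.66, and of 12 fatty acid synthesis genes below in 5 and above in 3, with -0.72 against -0.81, -0.69 and -0.56. With the other lines multiplied by the slope, 10 of the 17 and 6 of the 12 were below and 1 of each above. The glycerolipid and phospholipid list of 24 genes had a median of -0.27 against -0.28, -0.37 and -0.43, with 6 above the range and 5 below. The 8 genes of SREBP processing, which governs the sterol genes, had 0.15 against -0.02, -0.02 and -0.13, with 4 above and 1 below. MSMO1, HMGCS1 and ACSS2 lay below the range, while LSS of the cholesterol list and HACD3 of the fatty acid list lay above it. The second probe set of LSS lay within it. MSMO1 and HMGCS1, enzymes of the sterol pathway, had -1.04 and -1.21 against -0.64, -0.23 and -0.55 and against -1.14, -0.12 and -0.78, with the second probe set of HMGCS1 within the range. ACSS2, which makes acetyl-CoA from acetate, had -1.46 against -1.15, -0.98 and -0.49. G0S2, an inhibitor of lipid droplet lipolysis, went from 11.04 to 12.93, a difference of 1.89 against 1.48, -0.41 and -0.04.

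**Figure D4:**
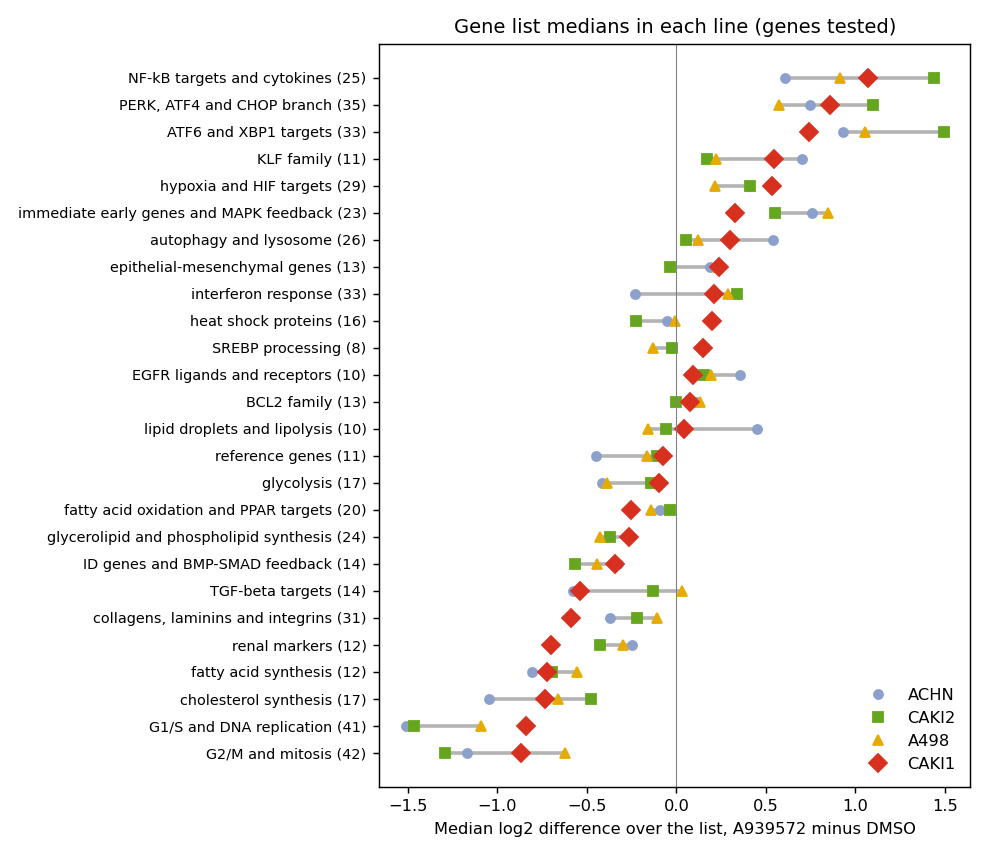
Median log2 difference of 26 gene lists in each line, with the number of genes tested and a grey bar for the range over ACHN, CAKI2 and A498. CAKI1 lies outside the bar toward 0 for the ATF6 and XBP1 targets and the G1/S genes, above it for hypoxia and heat shock genes and below it for collagens, laminins and integrins, and inside it for cholesterol synthesis.

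Cell death genes gave a mixed pattern. Of 13 BCL2 family genes CAKI1 was above the range in 5 (38.5%) and below in 4 (30.8%), against 23.8% and 26.4% of all genes. PMAIP1 (NOXA) had 2.20 against 1.42, 2.07 and 1.10, and HRK 2.29 against 0.78, 2.28 and 0.30, both close to CAKI2 and both within the range in a second probe set. BCL2L11 (BIM) had -1.11 against -0.74, 1.11 and -0.25 by its brightest probe set, while 4 of 5 further ones were within the range (CAKI1 0.32, -0.17, -0.47 and 0.02) and 1 below it (-0.84). Among 26 autophagy and lysosome genes 6 (23.1%) were above and 9 (34.6%) below. WIPI1, an autophagy protein, was at 12.18 and 12.80 in CAKI1, a difference of 0.61 against 2.36, 1.78 and 1.73, with a control level above those of the other lines (10.54, 10.33 and 10.56). Among 11 reference genes CAKI1 was above the range in 5 (45.5%) and below in 4 (36.4%), or 8 and 2 with median centring.

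The genes farthest outside the range were often dim in CAKI1 on one side. IL13RA2, a decoy receptor for interleukin 13, was at 4.33 with DMSO and 7.33 with the drug, a difference of 3.0 against -0.99, -0.71 and 0.05. LAMP3, a lysosomal membrane protein, went from 4.15 to 7.55, and GPC1, a glypican, from 5.16 to 7.47. LHX2 was under 6.41 on both CAKI1 arrays (4.48 and 5.57) while it was lower with the drug in the others by 1.42 to 1.92. On the other side, CA3, a carbonic anhydrase, went from 10.49 to 8.70 in CAKI1 and from 4.41, 4.99 and 5.73 to 6.67, 6.33 and 7.78 in the others. CAKI1 alone held CA3 well above the limit before treatment, and its treated level remained the highest of the 4.

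Some responses shared by the other lines were small, absent or opposite in CAKI1. Of the 206 genes 2-fold higher in the other lines, 10 had a CAKI1 difference within 0.3 of 0 or of opposite sign, and of the 178 lower genes 8 did. SLC10A7, a transporter-like membrane protein, went from 7.66, 8.36 and 8.07 to 10.12, 10.76 and 10.74 in the other lines and from 7.92 to 8.51 in CAKI1, a difference of 0.59 against 2.46, 2.40 and 2.67. CRISPLD2 was at 6.45 and 6.42 in CAKI1, at the limit on both arrays, and differed by -1.85, -1.50 and -1.98 in the other lines from levels of 9.15 or more. EFHB had -1.59 in CAKI1, from 9.84 to 8.25, against 0.76, 1.56 and 1.05. NTN4, a laminin-related netrin, had -1.12 against 1.38, 0.28 and 1.41, and its CAKI1 minus others was -2.51 without CAKI2, the line nearest to CAKI1.

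**Figure D5:**
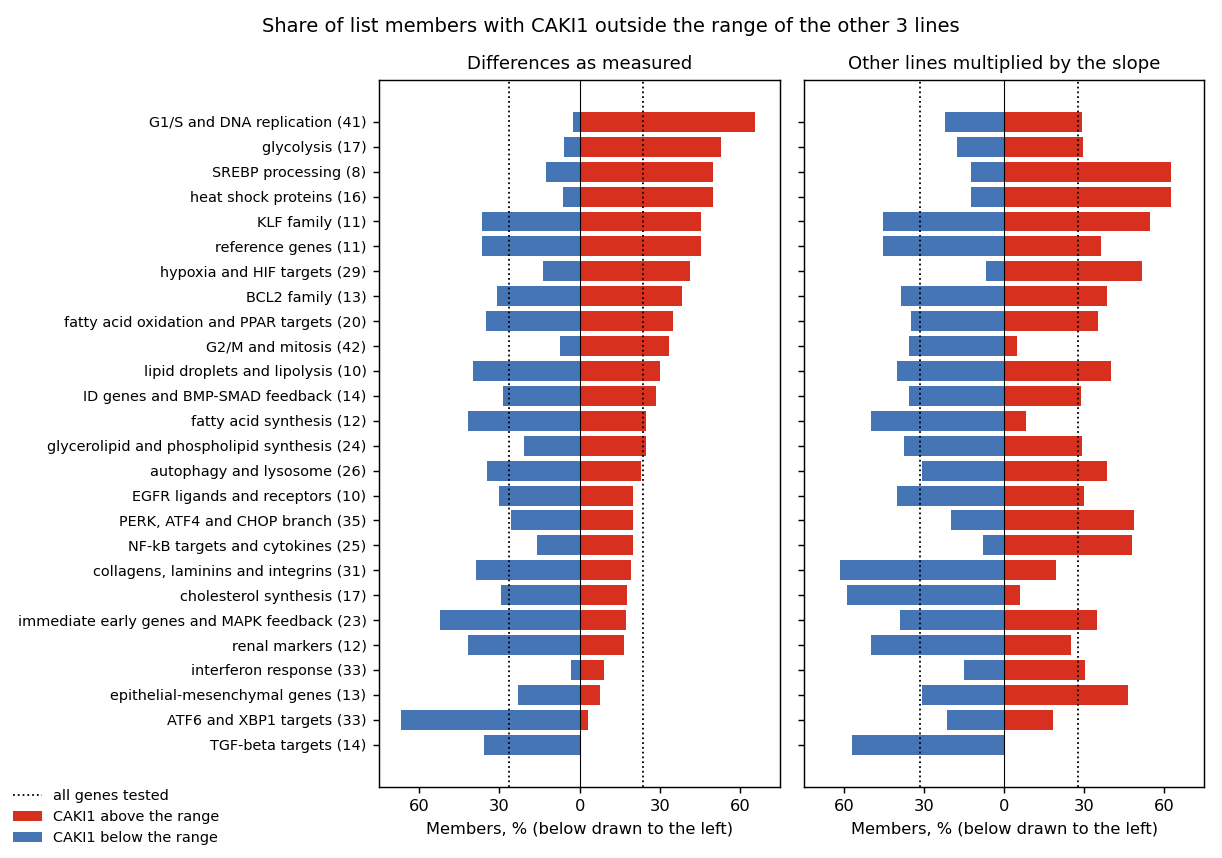
Share of each list's tested members with CAKI1 above (red, right) or below (blue, left) the range of the other 3 lines, as measured and with the other lines multiplied by the slope of 0.69, with dotted lines for all genes tested. The ATF6 and XBP1 targets go from 22 below and 1 above to 7 below and 6 above, and the G1/S genes from 27 above and 1 below to 12 above and 9 below, while in both panels hypoxia and heat shock genes have more members above than below and collagens, laminins and integrins more below than above.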

How the data were processed

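Each deposited array holds 1 linear intensity for every probe set, from an oligonucleotide array with biotin-labelled cRNA, per the labels' protocols. The program that the authors used to summarize probes is not given in the sources used here, but trimmed means of 500.067 to 500.073 on the 8 arrays show scaling to a common level. Every column of sample values was used. Signals were turned into log2(signal + 16), which understates changes of dim genes, and quantile normalized without 62 control probe sets. Probe sets with several symbols (1801) or none in the table used (11721) were left out, and names were updated by Entrez ID from the GRCh38.p14 annotation. Each gene was represented by its brightest probe set.

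limma 3.58.1 in R 4.3.3 was fitted to all 8 arrays with cell line as a block, treatment, and treatment by CAKI1, with 2 residual degrees of freedom (8.06 with the prior). The fit was also run on simulated data with the same noise in every line, which cannot check the assumption that CAKI1 varies like the others. P-values measure the spread between lines, which are the replicates here, and having only 8 arrays limits precision. The 52 lists named 1010 genes, of which 829 were tested and 93 had no probe set with 1 symbol and were not analysed here. Members and lists were chosen with earlier results of these data known.

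Genes were named by rule: the 15 farthest outside the range of the other lines each way, the 8 largest changes each way in CAKI1 alone and of all genes in CAKI1, the 8 shared changes each way missing from CAKI1, the 5 opposite each way, up to 3 members of each list, and SCD. EDEM2, CALR, HSPA5, XBP1, CHAC1, CEBPB, CEBPG, SLC7A1, CDCA7, POLE, MCM2, MCM3, UBE2C, ID2, SMAD6, NOG, ITGA3, ADM, P4HA1, DUSP10, FOS, EGR1, HMGCS1, ACSS2, PMAIP1, HRK, NTN4, DUSP4, DUSP5 and DUSP6 fall outside it and were chosen after their values were seen. Promoter sequences are from RefSeq (GRCh38.p14), and 9884 of the genes tested had a window of full length. Alternatives covered the scaling, the offset, the probe sets, the filter on dim genes, the variance prior, the block and each other line left out.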

Additional observations from a re-analysis of the deposited data

Results flagged for a closer look

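Within-line differences of the named genes, medians of 26 lists and the slope were checked for 1 of the 4 lines standing apart, by the gap to its nearest neighbour over the whole range against a critical ratio of 0.829, which chance passes in about 1 of 20 groups. Of 110 such values, 4 passed, 3 of them through CAKI1, which is under the share that chance passes. Many of the genes were named because CAKI1 lay apart, so the line that stood out carries no weight. LHX2 had 1.10 in CAKI1 as the highest, with both CAKI1 arrays under the brightness limit. PPARGC1A had -1.41 in CAKI1 as the lowest, and SLC10A7 had 0.59 in CAKI1 as the lowest. CEBPG stood apart through A498, with 0.85 as the lowest.

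In 18 named genes CAKI1 went one way and each of the other 3 lines the other. limma's test of the difference passed for 0 of them, and most were named because they differed. CAKI1 minus the mean of the others was positive for LHX2 (2.73), ID3 (2.20), CRYAB (2.17), EGLN3 (1.79), ITGA1 (1.41), ENO2 (1.28), ID2 (1.26), KLF2 (1.14) and HADHA (0.89). It was negative for CA3 (-3.68), EFHB (-2.71), KLF9 (-2.24), PPARGC1A (-2.18), NTN4 (-2.14), BMP2 (-1.50), SPRY1 (-1.43), EGFR (-0.85) and CALR (-0.76). Of the 8 of these genes with a further bright probe set, 1 (CALR) was opposite to all other lines in every one, and ID2, KLF9, SPRY1, HADHA, EGFR, EGLN3 and ITGA1 were not.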

How the results depend on the processing

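No gene passed limma's test in either direction under the other scalings, offsets, probe set rules, filters and variance prior, or with no replicate block (0 higher and 0 lower); with each other line left out in turn, which leaves fewer lines to set the spread, 0 to 2 genes passed higher (SLC7A11 without ACHN, ID1 and TNFAIP6 without CAKI2) and 0 to 1 lower (NTN4 without CAKI2). For each gene that passed there, the line left out was the one nearest to CAKI1, which widens the difference, so its passing adds no support. Counts of genes outside the range by log2 1 or more (105 above, 138 below) were 42 and 44 with an offset of 64, 476 and 524 without the filter on dim genes and 30 and 35 with a stricter one. They were 65 above with the mean of all probe sets, and 181 to 204 above and 204 to 274 below with each other line left out, where the range is of 2 lines. The slope (0.69) was 0.52 without the filter on dim genes, 0.61 to 0.64 with 1 line left out, and 0.66 to 0.73 otherwise. Of 1028 gene values under the alternatives, 7 had the other sign: SCD (0.13 without scaling, 0.036 with median centring, -0.25 to 0.17 with each other line left out), HSPA5 (0.030 without scaling), and, from averaged probe sets, P4HA1 (-0.019), PPARGC1A (0.13) and SLC7A1 (-0.18). The cause was not tested. List medians of CAKI1 minus the others kept their sign under all 12 alternatives for the ATF6 and XBP1, G1/S, hypoxia, heat shock, glycolysis, NF-kB, early response, matrix, EGFR, SREBP processing, epithelial-mesenchymal and cholesterol lists, and 35 of 312 values had the other sign among the remaining 14 lists. Multiplying the other lines by the slope, added after the values were seen, left medians of -0.03 (ATF6 and XBP1) and 0.04 (G1/S). Dim genes limit the reading too: 66 of the 105 and 78 of the 138 genes were under the limit on the DMSO and the A939572 array of CAKI1.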
